A study of Mus musculus with 13 samples.

Results

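The 10 genes described here are imprinted genes of the fetal growth network, namely H19, Igf2, Dlk1, Meg3, Rian, Mest, Peg3, Plagl1, Cdkn1c and Grb10. They were taken by symbol from the 23364 genes listed for mouse submandibular salivary gland, and all 10 were among the 14650 genes that reached 1 FPKM (fragments per kilobase of gene, relative to the depth of the sample) in at least 1 sample. They were proposed because their levels were already known to be high in the embryonic gland and low in the adult gland of these same samples. Their levels and time courses are therefore given as a description with no test, and nothing below rests on the fact that they differ between stages.

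The study sequenced whole-gland RNA of C57BL/6 mice from 6 ages, 13 samples in all, and calls samples of the same age biological replicates. Embryonic ages, counted in days, were E14.5 with 3 samples, E16.5 with 2 and E18.5 with 2, and later ages were postnatal day 5 (P5), 4 weeks (4wk) and 12 weeks (12wk) with 2 samples each. Each E14.5 sample pooled the glands of 3 animals and each E16.5 or E18.5 sample those of 2, sex was not determined before 4 weeks, and the animals of 4 and 12 weeks were male, so that sex and stage cannot be told apart in full. No sample was treated or mutant, and below the 7 samples up to E18.5 are called the embryo and the 4 samples from 4wk on the adult.

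Imprinted genes are transcribed mainly or only from the chromosome of 1 parent, under the control of DNA methylation that is laid down in the germ line and kept through development. Many of them set fetal growth. Paternally expressed Igf2 encodes insulin-like growth factor 2, which promotes growth, and maternally expressed Cdkn1c and Grb10 encode an inhibitor of cyclin-dependent kinases and an adaptor protein that restrains insulin and IGF signalling. The mice are of an inbred strain, so both parental copies have the same sequence and the allele of origin cannot be read from these data. In a whole gland, fewer cells that express a gene and less of its RNA per cell cannot be told apart.

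By the GENCODE annotation of mm9, H19 lies at chr7:149761434-149764048 on the minus strand and Igf2 at chr7:149836673-149852721 on the same strand, with an interval of 72.6 kb between them in which no gene is annotated. The methylation-sensitive boundary of this locus is known to lie just upstream of H19 and to be bound by Ctcf, a zinc finger protein that insulates enhancers from promoters. The interval was searched on both strands of mm9 for a 14-base Ctcf core word like that of the sites described there, in which 12 bases are fixed and the sixth and the ninth may be any base, and held 3 of the 9 matches on the whole of chromosome 7. Of 2100 windows of the same length on that chromosome, 0.286% held a match. Since the word is like that of the sites described at this locus, matches there were in part fixed in advance. Nothing is read from these counts. The matches are shown because they sit 2.17, 2.62 and 3.89 kb upstream of the start of H19, each with 7 bases on either side, on the strand that reads the word as spelled, and with the word in capitals. A match is a stretch of letters and not a measurement of binding.
Match at chr7:149766207-149766234, minus strand: gacgatgCCGCGTGGTGGCAGtacaata
Match at chr7:149766662-149766689, minus strand: gatgctaCCGCGCGGTGGCAGcatactc
Match at chr7:149767932-149767959, minus strand: ggagttgCCGCGTGGTGGCAGcaaaatc

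The other members lie on 5 chromosomes. Dlk1 (chr12:110691033-110701546), Meg3 (chr12:110779211-110809936) and Rian (chr12:110842155-110899919) follow each other on the plus strand of the Dlk1-Dio3 cluster, where Dlk1 is paternally and Meg3 and Rian are maternally expressed. Cdkn1c (chr7:150644255-150646955) is part of the Kcnq1 cluster on the same chromosome as H19 and Igf2, and Peg3 (chr7:6656603-6683132) is at its other end. Mest is at chr6:30673547-30698457, Plagl1 at chr10:12810497-12851500 and Grb10 at chr11:11830511-11938686. H19, Meg3 and Rian are long non-coding RNAs and the other 7 encode proteins.

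Some members also carry microRNA hairpins, by the RefSeq annotation of GRCm38.p6. H19 holds Mir675, Igf2 holds Mir483, Mest holds Mir335, Meg3 holds Mir770, and Rian holds Mir341, Mir1188 and Mir370. The 7 hairpins give 14 mature arms with 14 different seeds, so that no pair of them would be grouped by shared seed. Arms of the first 4 hosts are shown, with the seed (bases 2 to 8 from the 5′ end) in capitals.
mmu-miR-675-5p (H19): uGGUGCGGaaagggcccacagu
mmu-miR-675-3p (H19): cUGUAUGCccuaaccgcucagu
mmu-miR-483-5p (Igf2): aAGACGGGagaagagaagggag
mmu-miR-483-3p (Igf2): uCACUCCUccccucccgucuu
mmu-miR-335-5p (Mest): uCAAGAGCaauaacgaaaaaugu
mmu-miR-335-3p (Mest): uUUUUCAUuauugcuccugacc
mmu-miR-770-5p (Meg3): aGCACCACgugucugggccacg
mmu-miR-770-3p (Meg3): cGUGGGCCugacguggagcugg

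Promoter windows of 300 bases (250 before and 50 after the start of a transcript) were given for 8 of the 10 members by RefSeq on GRCm38.p6, and for H19 and Cdkn1c none was used. The 15 windows of these 8 genes held between 0 CpG dinucleotides, the sites at which imprints are methylated, in that of Rian and 45 in 1 of the windows of Grb10. In 12 of the 15 windows there were at least 7, the median of the 32851 windows of the table. The palindromic word GGGGCCCC, a GC-rich sequence of the kind that the Plagl1 protein binds, was found in 1.08% of all windows and in 1 of the 15, that of Peg3. The word TATAAA was found on either strand in 13.6% of all windows and in 1 of the 15, the upstream window of Meg3. The windows of Dlk1 (chr12:109452573-109452872), Meg3 (chr12:109540746-109541045), Peg3 (chr7:6730370-6730669, minus strand) and the Igf2 start nearest to the end of its gene (chr7:142657447-142657746, minus strand) are shown with CpG in capitals. They hold 9, 13, 13 and 7 CpG. Methylation was not measured in these samples.
Dlk1 promoter window: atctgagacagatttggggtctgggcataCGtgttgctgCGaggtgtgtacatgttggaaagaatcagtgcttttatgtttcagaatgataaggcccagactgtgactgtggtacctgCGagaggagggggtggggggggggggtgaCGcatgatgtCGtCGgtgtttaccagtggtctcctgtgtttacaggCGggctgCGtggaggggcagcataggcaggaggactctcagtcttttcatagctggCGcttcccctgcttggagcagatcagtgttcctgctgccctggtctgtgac
Meg3 promoter window: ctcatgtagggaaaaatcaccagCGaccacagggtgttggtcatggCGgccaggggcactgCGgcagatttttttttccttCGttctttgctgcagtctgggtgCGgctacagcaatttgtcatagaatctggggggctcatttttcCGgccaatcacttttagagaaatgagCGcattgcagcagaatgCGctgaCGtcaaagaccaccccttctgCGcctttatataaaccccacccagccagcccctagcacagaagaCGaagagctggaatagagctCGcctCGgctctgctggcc
Peg3 promoter window: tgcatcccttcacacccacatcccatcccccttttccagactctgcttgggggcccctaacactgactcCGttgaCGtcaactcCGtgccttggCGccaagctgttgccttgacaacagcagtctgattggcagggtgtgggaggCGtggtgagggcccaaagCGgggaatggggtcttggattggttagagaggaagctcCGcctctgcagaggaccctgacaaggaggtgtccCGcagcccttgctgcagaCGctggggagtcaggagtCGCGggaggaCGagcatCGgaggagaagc
Igf2 promoter window: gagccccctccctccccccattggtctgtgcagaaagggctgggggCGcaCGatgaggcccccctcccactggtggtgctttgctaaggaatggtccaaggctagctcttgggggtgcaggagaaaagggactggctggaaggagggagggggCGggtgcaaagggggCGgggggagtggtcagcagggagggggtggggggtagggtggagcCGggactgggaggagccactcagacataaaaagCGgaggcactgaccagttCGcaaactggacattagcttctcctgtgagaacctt

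Depth differed widely. Reads on genes, computed from the steps between low FPKM values, numbered 17345305 to 37309531 per embryonic sample, 42168626 and 48314162 for P5, and 5817293 to 28431454 per adult sample. With 1 length for each member, found as the one that brings all 13 of its values to within 0.01 of a whole number, FPKM were turned back into reads. An embryonic value of a member rested on 6816 to 208525 reads, a P5 value on 7440 to 73367 and an adult value on 5 to 271. In the adult samples 48.1 to 61.1% of all FPKM were in the 10 highest genes, against 29.2 to 31.1% at P5 and less in every embryonic sample. A larger share of the highest genes leaves a smaller share of FPKM for all others, and the median difference over all tested genes from embryo to adult was -0.75 on the log2(FPKM + 1) scale. The study's methods name a median normalization between samples, but the median ratio of a sample to the average profile was 0.617 to 0.714 in the adult and 1.15 to 1.38 in the embryo, where values normalized in that way would give about 1 in each. When the samples were rescaled by these ratios, the median difference was -0.08. All stage differences are on the log2(FPKM + 1) scale and are given with their standard error (SE) from limma, a linear model fitted to all tested genes.

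E14.5 replicate 1 stood apart from its replicates. Its level of Myog, a transcription factor of muscle differentiation, was 47.3 FPKM against 12.7 and 10.8, and that of Hbb-y, an embryonic haemoglobin of red blood cells, was 2991 FPKM against 334 and 670. Epcam, a marker of epithelium, was at 102 FPKM against 163 and 159, and Aqp5, the water channel of acinar cells, at 0.569 against 9.13 and 5.98. This sample also held the highest value of 7 of the 10 members, between 1.25 (Igf2) and 1.73 times (Plagl1) the mean of the other 2 replicates. In Meg3, where another sample was highest, this ratio was 2.78. Ratios to the embryonic mean are therefore also given without it.

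The growth factor of the network, Igf2, was at 409 FPKM or more in every embryonic sample and near 1 FPKM in the adult gland. Its FPKM were 1044, 839 and 833 at E14.5, then 589 and 544 at E16.5, then 446 and 409 at E18.5. At P5 they were 248 and 252. The adult values were 1.01 and 0.860 at 4wk and, at 12wk, 0.920 and 1.06. The level was lower at each step from E14.5 to 4wk, with no overlap between neighbouring time points, and the ranges of 4wk and 12wk overlapped. The embryonic mean of 672 FPKM was 697 times the adult mean, or 633 times without E14.5 replicate 1. On the log2(FPKM + 1) scale the adult minus embryo difference of Igf2 was -8.35 (SE 0.23).

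H19, the maternally expressed RNA of the same locus, was the most abundant member in every embryonic and P5 sample. It stood at 3248, 2547 and 2518 FPKM at E14.5, then 2199 and 1520 at E16.5, then 1452 and 1459 at E18.5, and 499 and 538 at P5. In the adult gland it was at 4.08 and 1.59 FPKM at 4wk and 1.68 and 2.07 at 12wk, values that rest on 33 to 154 reads. Its adult minus embryo difference of -9.31 (SE 0.25) was the lowest of all 14650 tested genes, which is the kind of value for which the gene was proposed.

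Among the embryonic samples H19 and Igf2 stood in a narrow range of proportions. The ratio of their FPKM within a sample, which does not depend on the total by which a sample was divided, was 2.79 to 3.73 in the 7 embryonic samples with a mean of 3.22 ± 0.33 (SD, n = 7). At P5 it was 2.01 and 2.14, below every embryonic sample. In the adult samples, where each value is near the low end of the scale, it spanned 1.83 to 4.02, with no sample inside either earlier range. The highest ratio, 4.02 in 4wk replicate 1, lay above every embryonic sample and rests on 62 reads of H19 and 25 of Igf2. All other adult ratios, from 1.83 to 1.95, lay below both P5 samples.

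**Figure D1:**
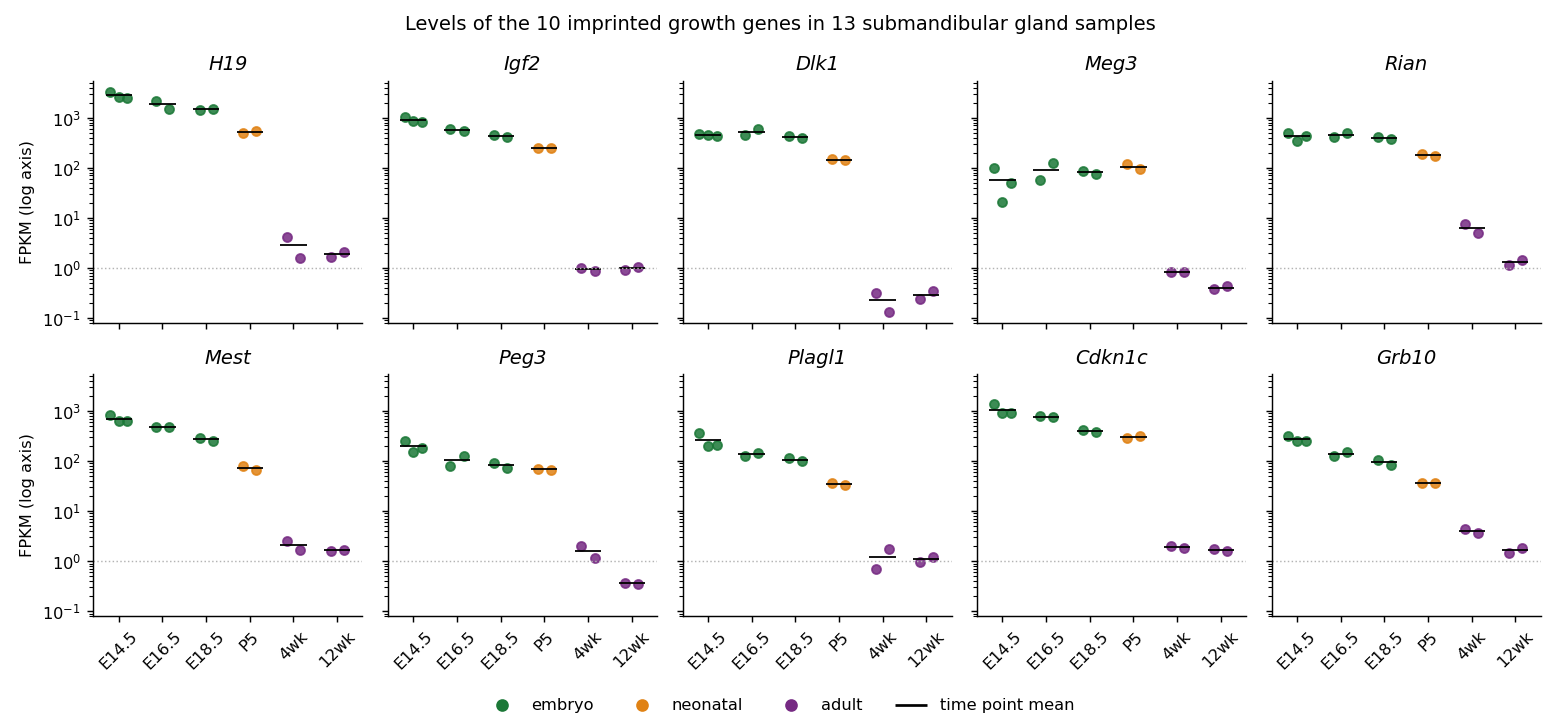
FPKM of each of the 10 genes (vertical axis, log scale, the same for all panels) in each of the 13 samples by time point. Points are samples, coloured by stage, black lines are time point means, and the dotted line marks 1 FPKM. In every panel the 4 adult samples lie below the 9 others, and in the Meg3 panel alone the P5 samples lie within the embryonic range.

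Dlk1 encodes a membrane protein with epidermal growth factor-like repeats that keeps precursor cells such as preadipocytes from differentiating. Its level differed little between the embryonic ages, with 470, 457 and 440 FPKM at E14.5, then 445 and 587 at E16.5, then 427 and 389 at E18.5. P5 samples were at 147 and 144 FPKM, below every embryonic sample. In the adult gland Dlk1 had the lowest level of the 10, with 0.322 and 0.131 FPKM at 4wk (9 and 5 reads) and 0.238 and 0.344 at 12wk (25 and 47 reads). The embryonic mean of 459 FPKM was 1777 times the adult mean, the widest span among the members, and 1770 times without E14.5 replicate 1.

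Rian, a host of many small nucleolar RNAs, showed a similarly small spread before birth. It was at 494, 344 and 427 FPKM at E14.5, then 409 and 504 at E16.5, then 404 and 378 at E18.5, and 189 and 174 at P5. In the adult gland it stayed above Dlk1, with 7.35 and 5.06 FPKM at 4wk and 1.15 and 1.44 at 12wk. Both 12wk samples were below both 4wk samples, and the mean of 4wk was 4.80 times that of 12wk, the widest such step among the members.

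The proportion of Dlk1 to Rian, expressed from opposite parental chromosomes, differed by stage. Their ratio within a sample was 0.95 to 1.33 in the embryo, 0.777 and 0.823 at P5, and 0.0258 to 0.239 in the adult, with no overlap between any of these ranges. Within the adult it was lower in both 4wk samples than in both 12wk samples, since Dlk1 was at similar levels at the 2 ages while Rian was not. The Dlk1 values behind the 4wk ratios are 9 and 5 reads.

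Meg3, a maternally expressed non-coding RNA of the same cluster, did not follow the others before birth. It was at 97.2, 20.8 and 49.0 FPKM at E14.5, then 57.3 and 123 at E16.5, then 87.0 and 74.6 at E18.5, and 118 and 93.8 at P5. These ranges overlap except those of E18.5 and P5, where both P5 samples were above both E18.5 samples. The E14.5 replicates spanned more (20.8 to 97.2 FPKM) than the means of E14.5, E16.5, E18.5 and P5 did (55.7 to 106 FPKM). The coefficient of variation over the 7 embryonic samples was 46.3% for Meg3, against 13.8% for Rian and 13.5% for Dlk1. All 4 adult samples were far lower, at 0.839 and 0.808 FPKM at 4wk and 0.373 and 0.428 at 12wk.

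Malat1, Kcnq1ot1 and Neat1, other nuclear long non-coding RNAs, were set beside Meg3 after their values were seen. Malat1 was at 34.9, 6.60 and 12.2 FPKM at E14.5, then 11.3 and 29.6 at E16.5, then 36.8 and 25.9 at E18.5. At each embryonic time point the order of the replicates was the same for Malat1 as for Meg3, and E14.5 replicate 2 was the lowest embryonic sample for both. That order is not particular to these RNAs, since Rian, Mest, Peg3, Plagl1, Grb10 and Zim1 had it too. Rian was also lowest among embryonic samples in E14.5 replicate 2. The order was also the same for Kcnq1ot1, at 0.333 to 1.27 FPKM in the embryo. For Neat1 it differed at E14.5, at 4.13, 3.81 and 5.23 FPKM, of which replicate 3 was highest, and was the same at E16.5 and E18.5. Neat1 was at 30.5 to 98.0 FPKM in these later embryonic samples. In the adult, Malat1 was at 22.3 to 83.3 FPKM and did not share the low level of Meg3. What varies between these libraries was not tested, and the differences of Meg3 within the embryo are read here no further than their spread.

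**Figure D2:**
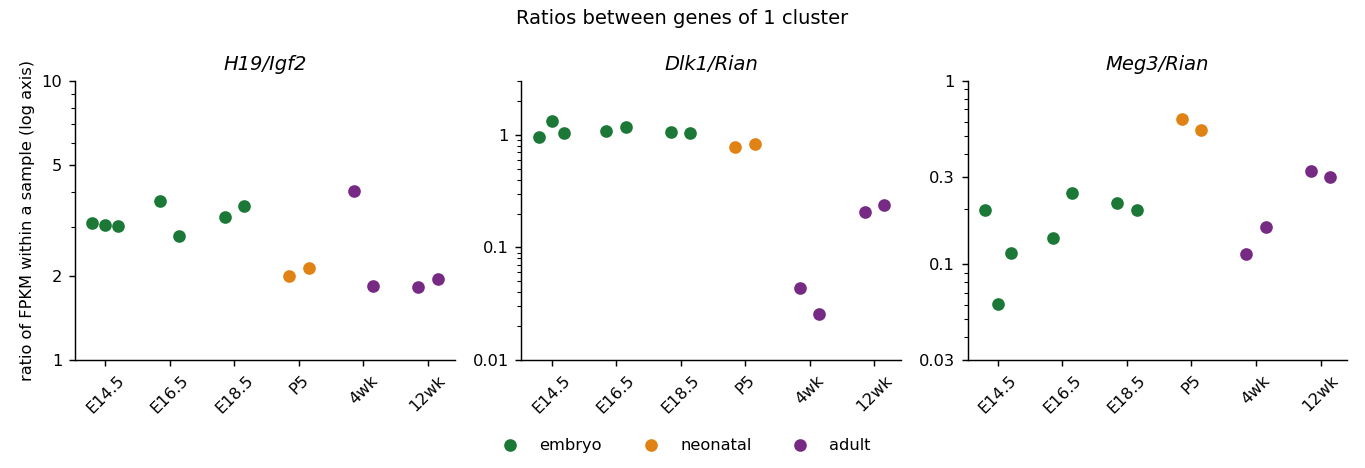
Ratio of FPKM within each sample (vertical axes, log scale) for H19 over Igf2, Dlk1 over Rian and Meg3 over Rian, by time point, with points for samples coloured by stage. H19 over Igf2 lies between 1.83 and 4.02 in all samples, while Dlk1 over Rian is near 1 before birth and at most 0.239 in the adult.

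Further genes of the Dlk1-Dio3 cluster were present at lower levels. Mirg, a microRNA host downstream of Rian, was at 14.4 to 38.8 FPKM in the embryo, 15.2 and 11.6 at P5 and at most 0.387 in the adult, and from embryo to adult it fell by 4.51 (SE 0.23, limma adjusted p = 2.88e-09). With every adult sample under 1 FPKM, Mirg passed the filter through earlier stages alone, and a lower adult level was in part fixed by that. Rtl1, a retrotransposon-derived gene on the opposite strand, was at 1.20 to 2.74 FPKM in the embryo and 0.233 and 0.240 at P5, and was listed at 0 in all 4 adult samples, so that it passed the filter through the embryonic samples alone. Dio3, which encodes the deiodinase that inactivates thyroid hormone, was nearly gone by P5. It was at 8.55 to 11.2 FPKM at E14.5, then 3.21 and 3.50 at E16.5, then 0.71 and 1.26 at E18.5 and at most 0.0443 at P5, and was listed at 0 in the adult, and it too passed the filter through the embryo alone. Reads of Rtl1 cannot be separated by strand where transcripts of the other strand cross it, since the counting is not stated to use strand.

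Small RNA rows of the cluster carried few reads. Of the 49 rows of microRNAs and small nucleolar RNAs annotated between Dlk1 and Dio3, 20 were at 0 in every sample, 47 were at 0 in every adult sample, and the highest value was 9.50 FPKM, for the small nucleolar RNA AF357355 inside Rian. Among rows inside members, Mir675 in H19 and Mir770 and Mir1906-1 in Meg3 were at 0 in every sample, although H19 itself was at 499 FPKM or more up to P5. Mir483 in Igf2 reached 3.67 FPKM and was above 0 in 8 samples, Mir335 in Mest reached 3.17 FPKM in 6 samples, and Mir341, Mir1188 and Mir370 in Rian reached 3.21, 4.32 and 1.31 FPKM. The authors' counting left out reads assigned to more than 1 gene, so a read assigned to both a hairpin and its host is lost to both. Which hairpins this touches was not determined, and rows above 0 kept some reads. In any case 50-base reads of long RNA do not measure the mature arms shown above. AF357359, a 30-base small nucleolar RNA row that RefSeq places within Rian, was the exception, with 672 to 1037 FPKM in the embryo, 402 and 397 at P5, and 0, 0, 6.11 and 2.35 in the adult samples. Within the adult it did not share the order of Rian, since it was at 0 at 4wk, where Rian was higher than at 12wk, and its 12wk values are 4 and 2 reads.

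Mest encodes a protein of the alpha/beta hydrolase fold and is a classic marker of fetal mesenchyme. Its FPKM were 838, 623 and 637 at E14.5, then 473 and 476 at E16.5, then 290 and 257 at E18.5, and 79.7 and 66.4 at P5. Each later time point lay below the one before it without overlap, and Mest had the largest decline before P5 of the 10, with a mean at E14.5 of 9.57 times that at P5. In the adult gland it was at 2.54 and 1.67 FPKM at 4wk and 1.63 and 1.65 at 12wk. Without E14.5 replicate 1 the E14.5 mean was 8.62 times that at P5.

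Plagl1 and Peg3 encode zinc finger proteins. Plagl1, which encodes a transcription factor known to regulate other imprinted genes, was at 359, 203 and 212 FPKM at E14.5, then 125 and 148 at E16.5, then 116 and 98.3 at E18.5, and 37.1 and 33.5 at P5. Its adult levels were 0.686 and 1.79 FPKM at 4wk and 0.976 and 1.19 at 12wk, with no order between the ages. Peg3, a nuclear protein with many zinc fingers that is known to affect growth and maternal behaviour, was at 257, 155 and 179 FPKM at E14.5, then 80.8 and 127 at E16.5, then 92.5 and 72.7 at E18.5, and 69.9 and 67.3 at P5. The P5 samples were below all embryonic samples, but by little, and the P5 minus embryo difference of Peg3 was -0.86 (SE 0.42). In the adult, Peg3 was at 2.02 and 1.16 FPKM at 4wk and 0.374 and 0.350 at 12wk, a mean ratio of 4.39 that rests on 54 to 78 reads a sample.

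Zim1, the maternally expressed neighbour of Peg3, stayed in near constant proportion to it while both were abundant. The ratio of Peg3 to Zim1 was 2.07 to 2.57 in the embryo and 2.39 in both P5 samples. In the adult Zim1 was at most 0.0904 FPKM, and from embryo to adult it fell by 5.69 (SE 0.26, limma adjusted p = 1.1e-09). It passed the filter of 1 FPKM through earlier stages alone, so a lower adult level was in part fixed by that. Zim1 was also among the genes whose profile was most like those of Igf2, Peg3 and Cdkn1c.

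The growth-restraining members were also highest at E14.5. Cdkn1c, whose product p57 holds cells in G1, was at 1358, 928 and 914 FPKM at E14.5, then 784 and 757 at E16.5, then 423 and 383 at E18.5, and 295 and 318 at P5. In the adult gland it was at 2.04 and 1.81 FPKM at 4wk and 1.75 and 1.61 at 12wk. Cdkn1c and Igf2 had the highest correlation of any pair of members, with r = 0.999 over the 13 samples, which share the contrast between stages that dominates every pair.

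Grb10 had the narrowest span of the 10. It was at 322, 252 and 256 FPKM at E14.5, then 127 and 153 at E16.5, then 105 and 83.1 at E18.5, and 35.7 in both P5 samples. In the adult it was at 4.37 and 3.70 FPKM at 4wk and 1.48 and 1.85 at 12wk, with no overlap between the ages. The embryonic mean was 65.1 times the adult mean, or 57.1 times without E14.5 replicate 1.

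Ordered by embryonic mean on the per-length FPKM scale, the members ran from H19 (2135 ± 690) through Cdkn1c (793 ± 331), Igf2 (672 ± 236), Mest (513 ± 205), Dlk1 (459 ± 62), Rian (423 ± 58.3), Grb10 (185 ± 90.7), Plagl1 (180 ± 89.9) and Peg3 (138 ± 65.7) to Meg3 (72.7 ± 33.6; SD, n = 7 for each). Of neighbours in this order, H19 and Cdkn1c did not overlap in their sample values and neither did Rian and Grb10, while all the other pairs of neighbours did. In the adult the order was different, with Rian (3.75 ± 2.99), Grb10 (2.85 ± 1.41) and H19 (2.35 ± 1.17) highest and Dlk1 (0.259 ± 0.0966, SD, n = 4) lowest. The members thus lay between 72.7 and 2135 FPKM in the embryo and between 0.259 and 3.75 FPKM in the adult. For only 2 of the 10, Dlk1 and Meg3, was every adult sample under 1 FPKM.

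**Figure D3:**
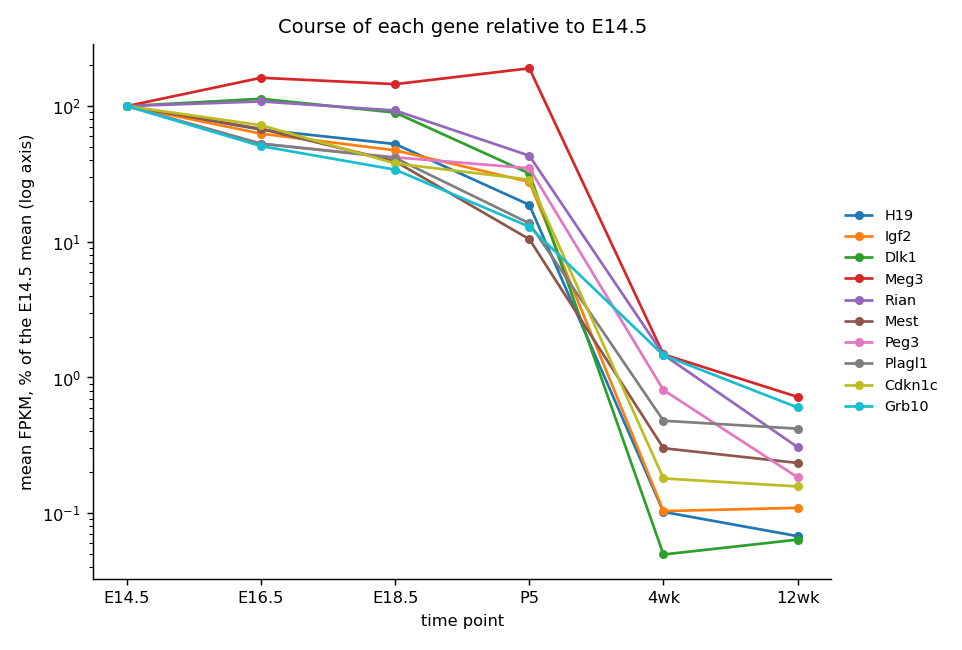
Mean FPKM of each of the 10 genes at each time point as a percent of its own mean at E14.5 (vertical axis, log scale). All lines drop between P5 and 4wk, to at most 1.48% of the E14.5 level, and Meg3, Dlk1 and Rian are the 3 that do not decline between E14.5 and E16.5.

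Set against the background of all tested genes, all 10 members had every adult sample below every embryonic sample, where 54.1% of the tested genes did. At P5, 9 of the 10 had both samples below every embryonic sample, all but Meg3, against 33.8% of tested genes. From P5 to the adult all 10 were without overlap, against 63.4%. Within the adult, both 12wk samples were below both 4wk samples for 6 members, namely Meg3, Rian, Mest, Peg3, Cdkn1c and Grb10, against 25.6%. Before birth, both E18.5 samples were below all 3 E14.5 samples for 8 members, all but Meg3 and Rian, against 44.6%, and both E16.5 samples for 7, which leaves out Dlk1 as well, against 24.5%. Since these courses are what the genes were proposed for, nothing is read from the counts.

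In the fit over all tested genes, the adult minus embryo differences of the members ran from -9.31 for H19 to -5.36 (SE 0.36) for Meg3 with a median of -7.05, where the median of all tested genes was -0.75. Dlk1 was at -8.51 (SE 0.11), Cdkn1c at -8.03 (SE 0.28), Mest at -7.39 (SE 0.28), Rian at -6.70 (SE 0.31), Plagl1 at -6.28 (SE 0.29), Peg3 at -6.09 (SE 0.33) and Grb10 at -5.52 (SE 0.35). In rank from the lowest of 14650 genes, 7 of the members were among the first 10 and all 10 among the first 50. The thresholds used here for other genes were an adjusted p below 0.1 and a log2 difference of 1 or more in either direction. Of all tested genes 38.0% were lower in the adult than in the embryo by that rule and 43.6% were past it in either direction, 8.14% and 12.3% at P5 against the embryo, and 20.8% and 23.1% in the adult against P5. The members were chosen on these same contrasts, so whether they pass is no test of them and nothing is read from it.

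For every member but Grb10, most of the decline on the log2 scale fell between P5 and 4wk. The 4wk minus P5 step ran from -7.16 (H19) to -2.87 (Grb10), and it made up 42.8% (Grb10) to 81.5% (Dlk1) of the whole difference between E14.5 and 12wk in the 9 members other than Meg3. For Meg3, which was higher at P5 than at E14.5, it was 115% of the whole. The step from 4wk to 12wk was between -1.64 (Rian, SE 0.19) and 0.08 (Dlk1, SE 0.14), with Grb10 at -0.92 (SE 0.17) and Peg3 at -0.91 (SE 0.26). No sample lies between P5 and 4wk, so when within these weeks the levels dropped is not known.

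Cell type markers shifted over the same ages. Skeletal muscle markers (Myod1, Myog, Myh3, Myh8, Actc1, Acta1, Ckm and Tnnt3) summed to 155 to 502 FPKM at E14.5 and 518 and 1123 at E16.5, and were at 3.63 and 26.2 FPKM at E18.5 and 6.47 and 1.87 at P5, while the 10 members together stood at 3842 and 3604 FPKM at E18.5 and 1718 and 1723 at P5. At E14.5 and E16.5 the muscle markers were higher than at E18.5 and P5, and so were the members together, at 4940 to 8487 FPKM. Between E14.5 and E16.5 the 2 sums went opposite ways. Muscle markers were higher at E16.5, and the members were lower, at 5289 and 4940 FPKM against 8487, 6367 and 6465 at E14.5. The part of muscle RNA in the members' levels was not tested. Red blood cell markers (Hbb-y, Hba-x and Alas2) summed to 75.2 to 3337 FPKM in the embryo, 23.0 and 12 at P5 and 2.54 to 4.26 in the adult, and their part in the members' levels was not tested. The E16.5 sample with the most muscle RNA, replicate 2, was also the highest for Dlk1, Rian and Meg3. The 10 members together were lower in it, at 4940 FPKM, than in E16.5 replicate 1, at 5289. The part of muscle RNA in those values was not tested.

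Mesenchyme markers were lower in the adult, as the members were. The 8 markers (Col1a1, Col1a2, Col3a1, Pdgfra, Vim, Lum, Twist1 and Twist2) summed to 1770 to 2930 FPKM in the embryo, 1675 and 1495 at P5 and 97.1 to 351 in the adult, and all 8 were lower in the adult by the limma test with a median difference of -3.29. Per gene, the embryonic mean was 4.07 (Lum) to 95.1 times (Twist2) the adult mean, and the range for the members, 65.1 to 1777 times, overlapped it at Twist2. The ratio of summed levels, a measure chosen after the levels were seen, was computed next. The summed FPKM of the members over that of the mesenchyme markers was 1.90 to 2.90 in the embryo, 1.03 and 1.15 at P5 and 0.0679 to 0.123 in the adult. Since the members were chosen for low adult levels, a low adult ratio was fixed by that choice and nothing is read from it. Of the 4 proliferation markers (Mki67, Top2a, Cdk1 and Ccnb1), all 4 were lower in the adult with a median of -4.86, and the same held for the 4 markers each of endothelium (median -1.65) and neurons (-2.30), the 3 of red blood cells (-4.53) and the 8 of skeletal muscle (-3.34). After rescaling 2 of the 4 endothelial and 3 of the 4 neuronal markers stayed lower, as did all markers of the other 3 lists just named. Among all tested genes as deposited 38.0% were lower, with a median of -0.75. Every adult sample was under 1 FPKM for 5 of the 8 muscle and 2 of the 3 red blood cell markers. The same was true of 2 of the 4 neuronal and 1 of the 8 mesenchyme markers. All of these passed the filter through earlier stages alone. Of the 7 epithelial markers 1, Aqp5, was past the thresholds and was higher (2.49, SE 1.14, adjusted p = 0.0601). The 4 immune markers summed to 9.78 to 17.1 FPKM in the embryo, 27.9 and 30.4 at P5 and 13.2 to 23.0 in the adult. How far changed cell proportions account for the members' levels was not tested.

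**Figure D4:**
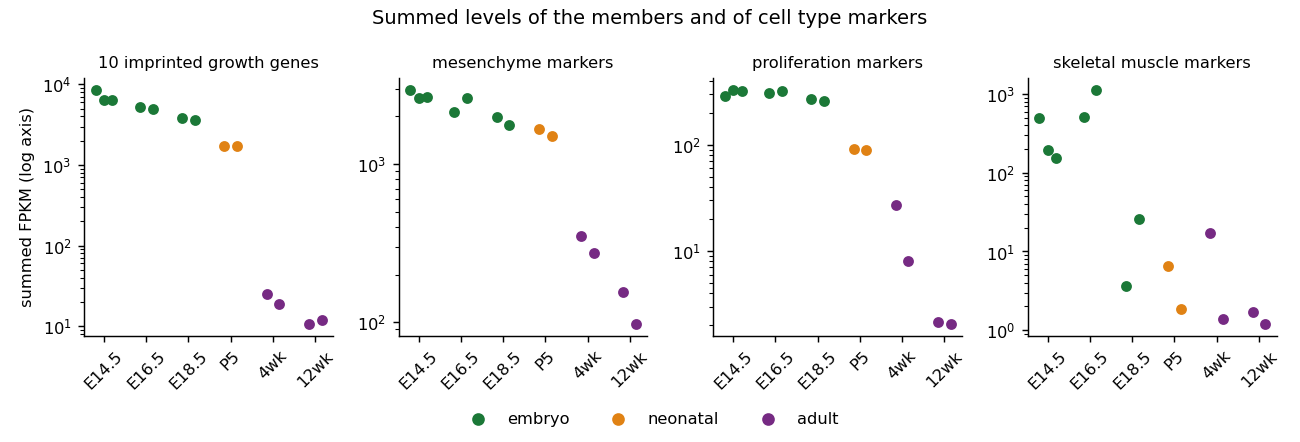
Summed FPKM (vertical axes, log scale, a separate range in each panel) of the 10 imprinted growth genes and of marker lists for mesenchyme, proliferation and skeletal muscle, per sample by time point. Muscle markers are already low at E18.5 and P5, where the 10 genes together stand between 1718 and 3842 FPKM. At E14.5 and E16.5 the 10 genes stand between 4940 and 8487 FPKM.

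Other imprinted genes were compared as a list of 61, of which 59 are in the files and 48 were tested. The list was drawn up by symbol, and whether each of its genes is imprinted in this gland was not measured. From embryo to adult 24 of the 48 were lower, 4 were higher and 20 were not past the thresholds, against 38.0% lower and 5.58% higher among all tested genes. Their median difference was -1.12. For 13 of the 24 every adult sample was under 1 FPKM, so these passed the filter through earlier stages alone. After rescaling, 15 were lower and 7 higher, with 15 of the 24 and all 4 of the 4 keeping their call. Over all 14650 tested genes, 2147 were lower and 2019 higher after rescaling. Under the deposited scaling the excess of lower over higher calls was thus also present over all genes, and nothing particular to the list is read from it. Its genes spread from -5.70 to 3.03, where the members all lay below -5.

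The largest falls among these other imprinted genes reached into the range of the members. Peg10, a retrotransposon-derived gene of the placenta, fell by 5.70 (SE 0.36, limma adjusted p = 1.82e-08), from a mean of 67.0 FPKM in the embryo to 0.140 in the adult. Ndn, which encodes the growth suppressor necdin, fell by 5.61 (SE 0.26, adjusted p = 1.19e-09), and Slc38a4, an amino acid transporter, fell by 4.94 (SE 0.29, adjusted p = 8.49e-09). Nnat fell by 4.34, Asb4 fell by 3.96 and Klf14 fell by 3.16, each with an adjusted p of at most 4.4e-07. With Zim1 and Mirg these are the 8 largest falls of the list. All but Ndn and Nnat had every adult sample under 1 FPKM, so they passed the filter through earlier stages alone. For these a lower adult level was in part fixed by that.

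The 4 genes of this list that rose from embryo to adult were Slc22a3, Kcnq1, Slc22a18 and Cobl. Slc22a3, an organic cation transporter, was at 0.282 to 0.906 FPKM in the embryo, 5.32 and 3.87 at P5 and 9.21 to 13.4 in the adult, a rise of 3.03 (SE 0.15, limma adjusted p = 1.97e-09). It passed the filter of 1 FPKM through P5 and the adult alone, so a higher adult level was in part fixed by that. Kcnq1, a potassium channel gene in the same cluster as Cdkn1c, rose by 2.00 (SE 0.24, adjusted p = 4.91e-06), Slc22a18, also of that cluster, by 1.37 (SE 0.20, adjusted p = 3.21e-05) and Cobl, an actin nucleator beside Grb10, by 1.05 (SE 0.18, adjusted p = 0.000149). Kcnq1ot1, the antisense RNA that silences the paternal copy of the cluster, had a difference of 0.00 (SE 0.15, limma adjusted p = 0.989). Its reads cannot be told from those of Kcnq1 without strand where exons of the 2 overlap. In the same cluster Tssc4 fell by 1.35 and Nap1l4 by 1.40 but neither passed after rescaling, and Ascl2, Phlda2, Cd81 and Osbpl5 were not past the thresholds. Genes of the Kcnq1 cluster thus lay on both sides of 0 while Cdkn1c was at -8.03.

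From embryo to P5 12 of the 48 were lower and 2, Slc22a3 and Kcnq1, were higher, where 8.14% and 4.14% of tested genes were. From P5 to the adult 14 were lower and 1, Slc22a3, was higher, where 20.8% and 2.31% were. The first of these counts was 8 in place of 12 without either of the P5 replicates, and the count over all genes lower at P5 went from 1192 to 667 without replicate 1 and 651 without replicate 2. In the Peg3 cluster, Usp29 was at -0.91 (SE 0.21, limma adjusted p = 0.00135) from embryo to adult, under the threshold of size. Ins2 and Th, near Igf2, were under 1 FPKM in every sample.

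**Figure D5:**
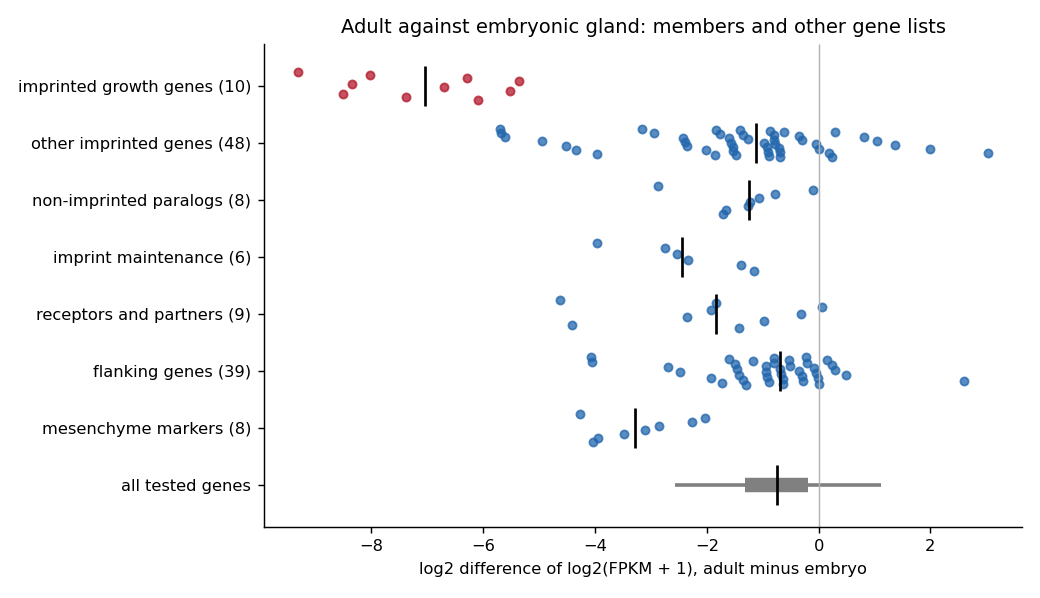
Adult minus embryo differences on the log2(FPKM + 1) scale (horizontal axis) for the 10 imprinted growth genes (red) and for 6 other lists (blue), with a point for each tested gene and a black line at each median. For all tested genes the thick bar spans the middle 50% and the thin bar the 5th to 95th percentile (-2.57 to 1.12). The 10 genes lie between -9.31 and -5.36, and the flanking genes have a median of -0.69 beside -0.75 for all genes.

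Relatives of the members that are not imprinted made a list of paralogs. Of 8 paralogs 6 were lower in the adult and 2 were not past the thresholds, with a median of -1.25. Among all tested genes 38.0% were lower, with a median of -0.75. Igf1, the other insulin-like growth factor, was at 12.1 to 46.1 FPKM in the embryo and 0.958 to 4.57 in the adult and fell by 2.88 (SE 0.35, limma adjusted p = 5.81e-06). Plag1 fell by 1.71 (SE 0.21), Plagl2 by 1.66 (SE 0.22), Dlk2 by 1.27 (SE 0.25), Cdkn1a by 1.22 (SE 0.34) and Cdkn1b by 1.07 (SE 0.18), while Grb7 was at -0.78 (SE 0.25) and Grb14 at -0.09 (SE 0.24). After rescaling only Igf1 and Plag1 of the 8 were past the thresholds. Every adult sample of Plag1 was under 1 FPKM, so it passed the filter through earlier stages alone.

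After rescaling 4 of the 9 receptors and partners of the members were lower in the adult. As deposited 6 were lower, against 38.0% of all tested genes, and 3 were not past the thresholds. The receptors through which IGF2 signals, Igf1r (-0.97, SE 0.19) and Insr (0.06, SE 0.14), were among the latter 3, as was the adaptor Irs2 (-0.32, SE 0.25). Igf1r was still at 1.74 to 3.35 FPKM in the adult samples, in which Igf2 was near 1. Igf2r, the imprinted receptor that clears IGF2, fell by 1.84 (SE 0.25, limma adjusted p = 1.4e-05) but stayed at 12.7 to 17.1 FPKM in the adult and was not past the thresholds after rescaling. The adaptor Irs1 fell by 1.43 (SE 0.26) and Notch1, a receptor that Dlk1 is known to act on, by 1.92 (SE 0.27).

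The 3 Igf2 mRNA-binding proteins, fetal RNA-binding proteins that carry Igf2 and H19 among their known targets, fell furthest of that list. Igf2bp3 was at 16.9 to 35.8 FPKM in the embryo, 10.3 and 9.61 at P5 and at most 0.243 in the adult and fell by 4.63 (SE 0.20, limma adjusted p = 9.03e-10). Igf2bp2 fell by 4.42 (SE 0.37, adjusted p = 1.7e-07) and Igf2bp1 by 2.36 (SE 0.31, adjusted p = 1.13e-05), the latter to a listed level of 0 in all 4 adult samples. All 3 were lower at P5 already, and these calls held after rescaling. Every adult sample of all 3 was under 1 FPKM, so they passed the filter through earlier stages alone and a lower adult level was in part fixed by that.

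Genes that maintain imprints were lower in the adult as well, as were 38.0% of all tested genes. All 6 of the list fell from embryo to adult, by 3.97 (SE 0.37) for Uhrf1, 2.75 (SE 0.24) for the maintenance methyltransferase Dnmt1, 2.53 (SE 0.35) for Zfp57, 2.34 (SE 0.26) for Trim28, 1.39 (SE 0.15) for Ctcf and 1.16 (SE 0.17) for Zfp445, with limma adjusted p of at most 3.11e-05. Zfp57, the zinc finger protein that guards methylated imprints, was at 2.24 FPKM or more in every embryonic sample and at most 0.273 in the adult, and passed the filter through earlier stages alone. After rescaling 4 of the 6 were past the thresholds and Ctcf and Zfp445 were not. Uhrf1 and Dnmt1 act at replicating DNA, and the proliferation markers fell over the same ages. Whether these falls are linked was not tested.

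Genes that flank the members and are on neither of the imprinted lists, the nearest 3 tested genes on each side, made a list of 39 that was drawn up after the members' values were seen. Their distances ran from 29.8 kb (Tsga14, from Mest) to 4714 kb (Egfr, from Grb10), so not all are close neighbours. Tnnt3, 1 of the muscle markers above, is among them. From embryo to adult 13 were lower, 1 was higher and 25 were not past the thresholds, beside 38.0% lower and 5.58% higher of all tested genes, and their median was -0.69. After rescaling 7 were lower and 4 higher. For 6 of the 13 every adult sample was under 1 FPKM, so these passed the filter through earlier stages alone. The nearest flank of H19, Mrpl23, was at -0.92 (SE 0.17) at a distance of 34.8 kb, and Ltv1, 47.0 kb from Plagl1, was at -1.29 (SE 0.18). Mkln1, 650.3 kb from Mest, was at 0.16 (SE 0.10), and at 1.06 after rescaling. The lowest flanking gene, Fignl1, was at -4.07, above the -5.36 of Meg3, the member nearest to 0.

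The genes most like each member in profile were found by Pearson's r of log2(FPKM + 1) over the 13 samples, among 3575 tested genes whose log2 values span at least 2. All samples share the contrast of embryo and adult, so r is high for many genes and is given as a description. Scara3, a scavenger receptor-like gene, was among the 3 most alike for H19, Igf2, Dlk1 and Cdkn1c (r of 0.994 for each, rounded), and Agtr2, the type 2 angiotensin receptor known for its fetal expression, for H19 and Dlk1. The others were Gna12 for H19, Zcwpw1 for Igf2, Thbs2 for Dlk1 and Cdk2 for Cdkn1c. The most alike genes of Rian were Fstl1, Aplnr and Wisp1, those of Mest Basp1, Gpr124 and Tmem164, those of Peg3 Fbn1, Zim1 and Dctd, those of Plagl1 Nrk, Gpc3 and Fbn2, and those of Grb10 Atxn10, Gjc1 and Armcx2. Gpc3 encodes a glypican known to restrain growth, and Fbn1 and Fbn2 encode fibrillins of the extracellular matrix. Meg3 had the least close matches, with Klhdc8b (r = 0.979), Fam43a and Adamts10, and among pairs of members the lowest r, 0.863, was that of Meg3 and Grb10.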

How the data were processed

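RNA from 13 submandibular gland samples was sequenced as 50 bp single-end reads by the authors. Per the labels and the study's methods, reads were aligned to mm9 with TopHat2 2.0.13 and Bowtie2 2.2.6 and counted on UCSC genes with featureCounts, which left out reads on several places or genes. The authors deposited FPKM values, 1 table per sample, and these were the only values used. The methods name a median normalization, which the deposited values do not show. DESeq2 1.10.1 was the authors' test and needs counts, so limma 3.58.1 in R 4.3.3 was used here on log2(FPKM + 1), over the 14650 genes that reached 1 FPKM in 1 or more samples, with stage (embryo with 7 samples, P5 with 2 and adult with 4) as the group and a mean-variance trend. Differences of at least 1 (log2) with a Benjamini-Hochberg adjusted p below 0.1 over all tested genes were called. The fit was tested on simulated data.

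Reads on genes numbered 5817293 to 48314162 per sample, so adult values of the members are the least precise. Alternatives were rescaling by the median of ratios, a pseudocount of 0.1, an adjusted p below 0.05, a filter over 2 samples and no filter, 6 time points as groups, fitting only the stages compared, a block for the replicate number, no mean-variance trend, and leaving out each sample. Tables and figures were made with Python 3.11.15, pandas 2.3.3, numpy 2.4.6 and matplotlib 3.10.9.

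The members and the lists (other imprinted genes, paralogs, receptors and partners, imprint maintenance and cell type markers) were chosen with earlier results of these data known. 1 gene of the red blood cell marker list is not reported here and is left out of its sums and counts. Genes named were the members, the genes of their clusters, the largest changes within each list and the 3 genes most alike to each member. Gene positions are from GENCODE M1 on mm9, and promoter and microRNA sequences from RefSeq on GRCm38.p6. No positions were converted between builds.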

Additional observations from a re-analysis of the deposited data

Results flagged for a closer look

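Each member was examined in the 7 embryonic and in the 4 adult samples for a sample far from the rest, 20 groups in all, and 2 stood out. For samples drawn alike, chance alone would flag about 1 in 20 groups. The groups here pool ages and share samples, so that rate is not known to hold for them. The level of Dlk1 in E16.5 replicate 2, 587.4 FPKM, was far above the other 6 embryonic samples, which lay between 389.1 and 469.6 FPKM. The same sample had the highest sum of skeletal muscle markers, 1123 FPKM, and the part of muscle RNA in the Dlk1 value was not tested. The level of Mest in 4wk replicate 1, 2.538 FPKM, was far above the other 3 adult samples, at 1.634 to 1.674 FPKM. It rests on 41 reads, and in this sample muscle markers summed to 17.3 FPKM against 1.37 in the other 4wk sample and proliferation markers to 26.9 against 7.96, whose part in the Mest value was not tested either.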

How the results depend on the processing

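As reported, after rescaling, with the smaller pseudocount and without each sample in turn, the settings run for single members, all 10 had an adult minus embryo difference below 0, from -9.31 to -5.36 in the first, -8.53 to -4.72 after rescaling by the median of ratios and -10.36 to -5.95 with a pseudocount of 0.1. Among other imprinted genes, rescaling turned the 24 lower and 4 higher in the adult than in the embryo into 15 and 7, and the 1 higher in the adult than at P5 into 4, since it removes most of the shift of all genes. It also turned the 6 lower paralogs into 2. With a pseudocount of 0.1, 23 in place of 14 other imprinted genes were lower in the adult than at P5. Leaving out 1 sample at a time gave 24 to 26 lower and 3 to 4 higher for adult against embryo, 12 to 15 and 1 to 1 for adult against P5, 8 to 13 and 2 to 2 for P5 against embryo (8 without either of the P5 replicates), and 5 to 6 and 0 to 0 for the paralogs. With the replicate number as a block the counts were 24 and 4, 14 and 1, 12 and 2, and 6 and 0, as without it. The numbers name samples and do not pair them, as same-numbered samples had a mean correlation of -0.016 in their deviations over 30 pairs. Low adult read counts limit the adult levels most, those of Dlk1 above all, with 5 to 47 reads a sample.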
